A study of Mus musculus with 17 samples.

Results

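The classical killer effector genes of cytotoxic lymphocytes were followed in AB12 mouse mesothelioma tumors by RNA-Seq. The group holds 8 protein coding genes of the 55450 genes in the count table, namely Prf1, Gzma, Gzmb, Gzmk, Gzmm, Fasl, Nkg7 and Ctsw, and each was found by matching the Ensembl ID of its row to the symbol in Gencode vM21. AB12 cells, a mesothelioma line of BALB/c origin, had been injected into the peritoneum of 8-week-old female BALB/c mice, so all 17 tumors derive from a single cell line in a single strain. Untreated tumors were collected at d6 (early phase, n = 3), d10 (intermediate phase, n = 5) and d14 (advanced phase, n = 3), and tumors of mice that received intraperitoneal anti CTLA-4 (clone 9D9, 200 µg per injection) were collected at d10 (n = 3) and d14 (n = 3). The treated d14 mice belonged to an early treatment arm injected on d6 and d10, while the number of injections that the treated d10 mice had received before collection was not given in the sources used here. A control antibody for the untreated mice is not named in the sources used here.

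Cytotoxic T cells and natural killer (NK) cells kill by releasing granules at the contact with a target cell. Perforin (Prf1) opens pores in the target membrane and lets the granzymes, a family of serine proteases stored in the same granules, into the cytosol, where granzyme B (Gzmb) cleaves caspases and other death substrates. Granzymes A, K and M (Gzma, Gzmk and Gzmm) have other cleavage preferences, with Gzmm best known from NK cells and Gzmk from memory-like T cells. Fas ligand (Fasl) acts outside the granules by engaging the death receptor Fas on the target, whereas Nkg7 is a membrane protein of cytotoxic granules and Ctsw (cathepsin W) is a cysteine protease of cytotoxic T and NK cells.

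The libraries held between 46371577 and 96759833 counts (median 72413343), and levels are given as normalized CPM, that is counts relative to the TMM-scaled library size. The summed level of 9 mesothelioma and mesothelium markers was between 1882 and 4041 normalized CPM in every tumor, 8 of them passed the filter on low counts, and Pdpn had 0 counts in 14 of 17 libraries. Several tumors stood apart from others with the same label. By their counts of pseudogenes and small RNAs, untreated d10 replicates 1 to 3 were grouped with the d6 tumors and replicates 4 and 5 with the treated d10 tumors, and 7.89% of 17321 genes were called between these parts of the untreated d10 group, though none of the 8 killer effector genes reached an adjusted p-value of 0.05 (edgeR quasi-likelihood test; lowest 0.066, for Gzmb). Untreated d10 replicate 4 had a summed level of B cell genes of 113 normalized CPM against 8.30 to 25.2 in the other 4. Pancreas acinar genes summed to 2348 and 805 normalized CPM in anti CTLA-4 d14 replicates 1 and 3 and to 3.53 in replicate 2. Untreated d14 replicate 2 was the lowest of its group for 7 of the 8 genes, all but Gzmm, and it also had the lowest summed level of CD8 T cell genes in that group (38.3 normalized CPM). Anti CTLA-4 d14 replicate 3 was the lowest of its group for all 8 genes, and anti CTLA-4 d10 replicate 1 the highest of its group for 7.

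The genes are placed here on the GRCm38 build (Gencode vM21), where Gzma and Gzmk lie near each other on chromosome 13. Prf1 is at chr10:61297833-61304680 on the plus strand, Gzmm at chr10:79689020-79695261 (plus), Gzma at chr13:113093825-113100981 (minus), Gzmk at chr13:113171608-113225908 (minus), Gzmb at chr14:56258838-56262260 (minus), Fasl at chr1:161780689-161788495 (minus), Nkg7 at chr7:43437073-43438249 (plus) and Ctsw at chr19:5465043-5468507 (minus). Gzmk overlaps Esm1 on the opposite strand without sharing exon bases, and Ctsw shares 9 of its 1887 exon bases with Fibp on the opposite strand. Reads were counted over exons, and whether the counting used strand was not given in the sources used here.

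The 250 bases before the RefSeq start (GRCm38.p6) are shown for 5 genes that move differently in these tumors, in lower case with matches to the searched motifs in capitals. Of the 8 genes, 7 had such a window in the RefSeq table.
Prf1 (chr10:61297586-61297835, plus strand): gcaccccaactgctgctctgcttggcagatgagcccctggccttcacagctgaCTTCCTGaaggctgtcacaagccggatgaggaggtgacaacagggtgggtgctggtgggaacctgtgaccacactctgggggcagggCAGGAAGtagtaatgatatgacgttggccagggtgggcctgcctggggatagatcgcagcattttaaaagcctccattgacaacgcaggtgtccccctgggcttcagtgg
Gzma (chr13:113100982-113101231, minus strand): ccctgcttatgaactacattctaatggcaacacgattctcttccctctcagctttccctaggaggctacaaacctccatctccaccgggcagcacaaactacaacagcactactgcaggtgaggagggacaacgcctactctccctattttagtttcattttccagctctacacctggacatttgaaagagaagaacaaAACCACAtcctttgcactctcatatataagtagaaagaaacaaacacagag
Gzmb (chr14:56262335-56262584, minus strand): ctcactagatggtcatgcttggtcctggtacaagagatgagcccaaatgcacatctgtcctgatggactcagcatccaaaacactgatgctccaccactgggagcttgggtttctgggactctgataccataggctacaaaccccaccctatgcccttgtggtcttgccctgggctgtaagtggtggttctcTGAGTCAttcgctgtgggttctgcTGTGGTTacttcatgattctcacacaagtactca
Nkg7 (chr7:43436888-43437137, plus strand): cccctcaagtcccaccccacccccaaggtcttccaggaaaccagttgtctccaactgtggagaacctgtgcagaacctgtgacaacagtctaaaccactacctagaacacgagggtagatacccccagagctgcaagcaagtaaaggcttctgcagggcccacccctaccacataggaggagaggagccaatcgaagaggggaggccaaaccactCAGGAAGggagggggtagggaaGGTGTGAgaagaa
Gzmm (chr10:79688770-79689019, plus strand): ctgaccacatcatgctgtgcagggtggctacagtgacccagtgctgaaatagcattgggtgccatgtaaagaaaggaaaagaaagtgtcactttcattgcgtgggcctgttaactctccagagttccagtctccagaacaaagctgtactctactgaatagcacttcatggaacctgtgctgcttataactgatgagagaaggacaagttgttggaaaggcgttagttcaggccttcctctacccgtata

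The searched motifs, on both strands, were an ETS motif (CAGGAAG), a RUNX motif (TGTGGTT), an AP-1 motif (TGANTCA), a T-box motif (GGTGTGA) and a CRE motif (TGACGTCA), none of which overlap in the windows shown. They match 10.8%, 4.4%, 6.75%, 3.33% and 1.55% of all 32851 windows of this length in the table, in that order. The Prf1 window holds the ETS letters in both orientations, the Gzma window holds the RUNX letters on the opposite strand, and the Gzmb window holds the AP-1 and RUNX letters. The Nkg7 window holds the ETS and T-box letters, and the Gzmm window holds none of the searched letters. The RefSeq start of Nkg7 lies 65 bases inside the Gencode gene, and both Nkg7 matches lie inside that gene too. These matches describe the sequence and say nothing on binding in the tumors.

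Per length of exon, granzyme B was the most abundant of the 8 mRNAs in all 17 tumors, with a mean of 157 normalized CPM per kb over the tumors. Prf1 followed with 56.3, Gzma with 45.8 and Nkg7 with 42.2 normalized CPM per kb, then Gzmk with 6.37 and Ctsw with 6.30, whose places were exchanged between tumors, Fasl with 2.76 and Gzmm with 0.501. Ctsw was above Gzmk in 11 tumors, among them all tumors at d6 and d14, and Gzmk above Ctsw in 6 tumors, all at d10. Fasl was in the seventh and Gzmm in the last place in every tumor. The order between these changed with the tumor phase, as Gzma was above Prf1 in all 3 d6 tumors and below it in all 3 untreated d14 tumors. Counts behind these levels ranged from 24 to 95 for Gzmm, from 97 to 741 for Fasl and from 5268 to 30112 for Gzmb.

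Perforin mRNA was lowest in early-phase tumors, 4.34-fold higher in untreated d10 tumors and intermediate in untreated d14 tumors, and it was highest in the anti CTLA-4 groups. The 3 d6 tumors had 37.3, 43.6 and 33.7 normalized CPM of Prf1, and the 5 untreated d10 tumors had 136, 205, 162, 133 and 179. In untreated d14 tumors the values were 108, 69.8 and 98.5 normalized CPM. The 3 untreated groups did not overlap. The treated d10 tumors had 233, 176 and 229 and the treated d14 tumors 213, 224 and 190 normalized CPM of Prf1, which overlapped each other and the untreated d10 tumors but lay above every untreated d14 tumor. From d6 to d10 the log2 fold change was 2.12 (SE 0.17, edgeR quasi-likelihood test with Benjamini-Hochberg adjustment over all genes tested, adjusted p = 0.000132). From d10 to d14 Prf1 fell by 0.83 on the log2 scale (SE 0.19, adjusted p = 0.0173), less than the 2-fold limit used for calling a gene. Treated d14 tumors exceeded untreated d14 tumors by a log2 fold change of 1.21 (SE 0.16, adjusted p = 0.00499).

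**Figure D1:**
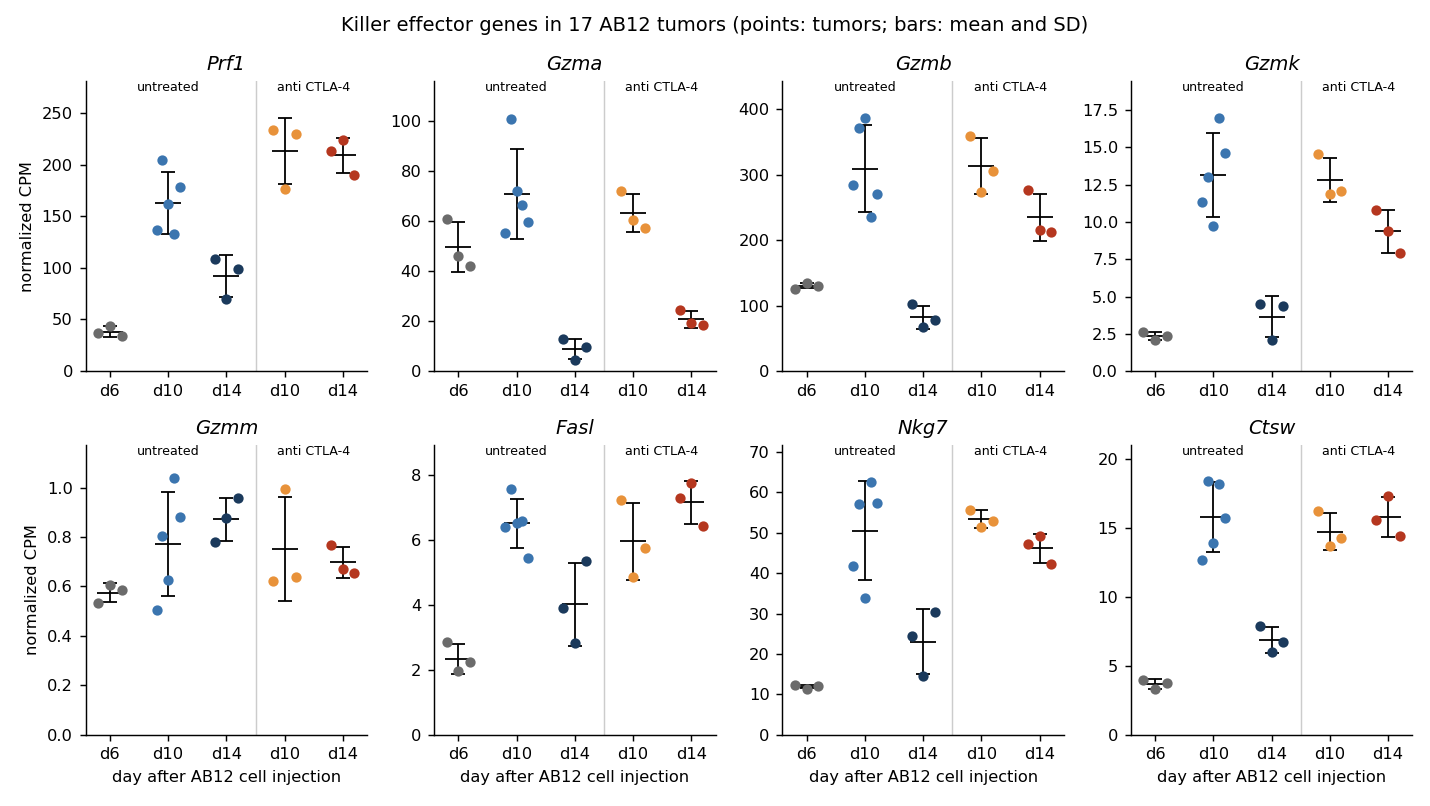
Normalized CPM (linear axes from 0) of the 8 genes in each of the 17 tumors by group, with the mean and SD as bars. Prf1 fell from a mean of 163 to 92.1 normalized CPM between untreated d10 and d14 tumors and Gzma from 70.9 to 8.99, while Gzmm stayed between 0.507 and 1.04 in all tumors.

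Granzyme A differed from the other members in its course. It was already abundant in early-phase tumors, did not pass the test between d6 and d10, fell 7.91-fold from untreated d10 to d14 tumors and stayed below its d6 level in treated d14 tumors. The d6 tumors had 60.8, 46.2 and 42.1 normalized CPM of Gzma, and the untreated d10 tumors had 55.3, 101, 72.3, 66.7 and 59.5, so these groups overlapped. In the untreated d14 tumors 12.7, 4.64 and 9.58 normalized CPM were measured. Anti CTLA-4 d10 tumors, with 72.0, 60.7 and 57.2 normalized CPM, lay inside the untreated d10 range. At d14 the treated tumors had 24.7, 19.1 and 18.7 normalized CPM, above all untreated d14 tumors and below all d6 tumors. The log2 fold change of Gzma was 0.54 (SE 0.20, adjusted p = 0.0979) from d6 to d10 and -2.98 (SE 0.34, adjusted p = 0.00415) from d10 to d14, both by edgeR's quasi-likelihood test. Counted from the lowest log2 fold change between d10 and d14, Gzma ranked 79 of 17659 genes. With untreated d10 replicates 1 to 3 alone, which share a library set with the d6 tumors, the d6 to d10 change was 0.64 with an adjusted p-value of 0.0451 by the same edgeR test.

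Granzyme B rose from d6 to d10 and then fell below its early-phase level. The levels were 126, 135 and 131 normalized CPM in d6 tumors and 283, 371, 387, 235 and 271 in untreated d10 tumors, with no overlap. Untreated d14 tumors had 102, 67.9 and 77.5 normalized CPM, all below every d6 tumor. Treated d10 tumors (360, 274 and 306 normalized CPM) overlapped untreated d10 tumors, and treated d14 tumors (276, 216 and 213 normalized CPM) lay above both untreated d14 and d6 tumors. By edgeR's quasi-likelihood test the log2 fold change was 1.27 (SE 0.18, adjusted p = 0.00158) from d6 to d10, -1.91 (SE 0.21, adjusted p = 0.00415) from d10 to d14 and -0.64 (SE 0.14, adjusted p = 0.00400) from d6 to d14. The rise from d6 was 0.97 on the log2 scale, just short of 2-fold, with untreated d10 replicates 4 and 5 alone (adjusted p = 0.000310).

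Granzyme K, a minor granzyme in these tumors, had the largest rise of the 8 genes from d6 to d10, 5.68-fold, and fell by 3.61-fold to d14. The d6 tumors had 2.60, 2.08 and 2.37 normalized CPM of Gzmk, against 11.4, 13, 9.75, 16.9 and 14.6 in untreated d10 tumors. The untreated d14 tumors, at 4.51, 2.08 and 4.39 normalized CPM, overlapped the d6 tumors and none of the d10 tumors. Levels were 14.5, 11.9 and 12 normalized CPM in treated d10 tumors and 10.8, 9.42 and 7.92 in treated d14 tumors. The latter 2 groups did not overlap each other. The log2 fold changes from d6 to d10 and from d10 to d14 were 2.51 (SE 0.21, adjusted p = 0.000147) and -1.85 (SE 0.29, adjusted p = 0.00656) in edgeR's quasi-likelihood test.

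Granzyme M was low, with 24 to 95 counts per tumor, and did not follow the other genes. Its lowest level was 0.507 and its highest 1.04 normalized CPM, both in untreated d10 tumors (0.507, 0.805, 0.628, 1.04 and 0.879). The d6 tumors had 0.534, 0.605 and 0.587, the untreated d14 tumors 0.781, 0.877 and 0.957, the treated d10 tumors 0.621, 0.993 and 0.637 and the treated d14 tumors 0.768, 0.672 and 0.653 normalized CPM. Gzmm passed the edgeR test in none of the 8 comparisons, with adjusted p-values from 0.0652 (d14 against d6) to 0.957 (treated against untreated at d10). The SE of its log2 fold change was 0.21 to 0.38 over these comparisons.

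Fas ligand, which acts through the receptor Fas, was 2.82-fold higher in untreated d10 than in d6 tumors. Its levels were 2.85, 1.96 and 2.23 normalized CPM at d6 and 6.39, 7.56, 6.53, 6.59 and 5.46 at d10 without treatment. The untreated d14 tumors spread from 2.81 to 5.35 normalized CPM (3.89, 2.81 and 5.35), overlapping the d6 tumors at their low end. In the treated groups the values were 7.24, 4.86 and 5.75 at d10 and 7.30, 7.74 and 6.43 at d14. The log2 fold change of Fasl was 1.5 (SE 0.19, adjusted p = 0.000968) from d6 to d10 and -0.70 (SE 0.21, adjusted p = 0.0449) from d10 to d14, both from the edgeR quasi-likelihood fit. Against untreated d10 replicates 4 and 5 alone the fall was 0.60 on the log2 scale, with an adjusted p-value of 0.141 by edgeR. The receptor gene Fas itself was at 27.4 ± 3.42 normalized CPM (SD, n = 3) in d6, 28.0 ± 6.31 (SD, n = 5) in untreated d10 and 20.1 ± 3.43 (SD, n = 3) in untreated d14 tumors and passed the test in neither step, though it was lower in d14 than in d6 tumors (-0.43, SE 0.15, adjusted p = 0.0365 in edgeR).

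The granule membrane gene Nkg7 and the protease gene Ctsw rose and fell in parallel. Nkg7 was at 12.2, 11.4 and 12.1 normalized CPM in d6 tumors, at 41.7, 57.1, 33.8, 62.6 and 57.4 in untreated d10 tumors and at 24.4, 14.5 and 30.3 in untreated d14 tumors. For Ctsw the corresponding values were 3.96, 3.31 and 3.79, then 12.7, 18.4, 13.9, 18.2 and 15.7, then 7.89, 6.01 and 6.76 normalized CPM. In both genes the untreated groups did not overlap and followed the order d6, d14, d10. The treated d10 tumors had 55.7, 51.3 and 52.9 normalized CPM of Nkg7 and 16.2, 13.7 and 14.3 of Ctsw, and the treated d14 tumors had 47.2, 49.2 and 42.2 of Nkg7 and 15.5, 17.3 and 14.4 of Ctsw. All treated d14 values were above those of the untreated d14 tumors and inside the untreated d10 range. From d6 to d10 the log2 fold changes were 2.11 (SE 0.21, adjusted p = 0.000335) for Nkg7 and 2.12 (SE 0.17, adjusted p = 0.000124) for Ctsw in edgeR's quasi-likelihood test.

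The first comparison asked how the killer genes changed as tumors passed from the early to the intermediate phase. Of the 8 genes, 6 were called higher at d10 (adjusted p below 0.05 in edgeR's quasi-likelihood test and a fold change above 2), namely Prf1, Gzmb, Gzmk, Fasl, Nkg7 and Ctsw, and none was called lower. Among all 16866 genes tested, 4.79% were called higher. The median log2 fold change of the 8 genes was 1.80 against 0.03 for all genes tested. With untreated d10 replicates 1 to 3 alone, which were in the same library set as the d6 tumors, the same number were called (6), and with replicates 4 and 5 alone 5 were called. Since the values are from whole tumors, fewer cells of a type and less RNA per cell cannot be told apart. The CD8 T cell genes Cd8a and Cd8b1 rose over the same interval, from a summed level of 12.1 to 12.4 normalized CPM at d6 to between 96.6 and 135 at d10. All 3 CD3 genes and 3 of 5 mast cell genes were called higher too. The mast cell genes summed to 8.73 to 10.8 normalized CPM at d6 and 14.7 to 28.0 at d10. Of 3 plasmacytoid dendritic cell genes, 2 passed the test as lower. The part of T cell number and of these other cells in the rise of the killer genes was not tested.

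From the intermediate to the advanced phase, 5 of the 8 genes were called lower, namely Gzma, Gzmb, Gzmk, Nkg7 and Ctsw, against 3.45% of all 17659 genes tested (609 genes). The number of genes called lower depended on single tumors, with 132 of 17998 without untreated d14 replicate 2, 341 without untreated d14 replicate 1, and 394 and 339 without untreated d10 replicates 1 and 2. Prf1 and Fasl also passed an adjusted p-value of 0.05 in edgeR with a fall of less than 2-fold, so that 7 of the 8 fell, whereas 9.87% of all genes did. The log2 fold changes spread from -2.98 for Gzma over -1.14 (SE 0.27, adjusted p = 0.0193) for Nkg7 and -1.20 (SE 0.17, adjusted p = 0.00579) for Ctsw to 0.16 (SE 0.28, adjusted p = 0.703) for Gzmm, with a median of -1.17 against -0.04 for all genes. The call of Nkg7 was lost without untreated d14 replicate 1 (adjusted p = 0.0592), without replicate 2 (-0.90, adjusted p = 0.0796), against untreated d10 replicates 1 to 3 alone (-0.94, adjusted p = 0.0261) and with the replicate number as a block (-0.96, adjusted p = 0.0874), all in edgeR. With that block Fasl did not pass either (-0.80, adjusted p = 0.0699), so that 5 of the 8 fell in place of 7. Other cell markers fell over the same interval. The macrophage genes went from 879 to 1370 down to 482 to 613 normalized CPM without overlap, with 3 of 4 passing the test, and Cd4 (-1.20, adjusted p = 0.0189) and the gamma delta T cell gene Trdc (-1.99, adjusted p = 0.00746) were called lower by edgeR. The CD8 T cell genes went from 96.6 to 135 down to 38.3 to 73.4 normalized CPM. The part of these cells in the fall of the killer genes was not tested. The untreated d10 group is shared by this comparison and the previous one. With the libraries divided into 2 sets, the d14 libraries shared a set with untreated d10 replicates 4 and 5 and the treated d10 tumors. With 3 sets they shared none with any d10 library, treated or untreated. By that division tumor phase and library set cannot be told apart between d10 and d14.

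Advanced and early-phase tumors were then compared directly. They shared no library set by either division, so that tumor phase and library set cannot be told apart here. Between d6 and d14, Prf1 was called higher at d14 (log2 fold change 1.29, SE 0.16, adjusted p = 0.000282) and Gzma was called lower (-2.45, SE 0.32, adjusted p = 0.000347) by edgeR's quasi-likelihood test. These are 1 of 8 in each direction, beside 10.2% of all 17172 genes called higher and 8.81% called lower. At an adjusted p-value below 0.05 alone, 4 of the 8 genes were higher and 2 were lower, beside 25.5% and 26% of all genes. Nkg7 (0.97, SE 0.23, adjusted p = 0.00677) and Ctsw (0.92, SE 0.17, adjusted p = 0.00237) were also higher, by less than 2-fold, and both were past 2-fold without untreated d14 replicate 2 (1.22 and 1.01). Fasl rose by 0.79 (SE 0.27, adjusted p = 0.0335) in the edgeR fit although its d6 and d14 values overlapped. Gzmk (0.65, SE 0.30, adjusted p = 0.0927) and Gzmm (0.62, SE 0.25, adjusted p = 0.0652) did not pass the test.

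**Figure D2:**
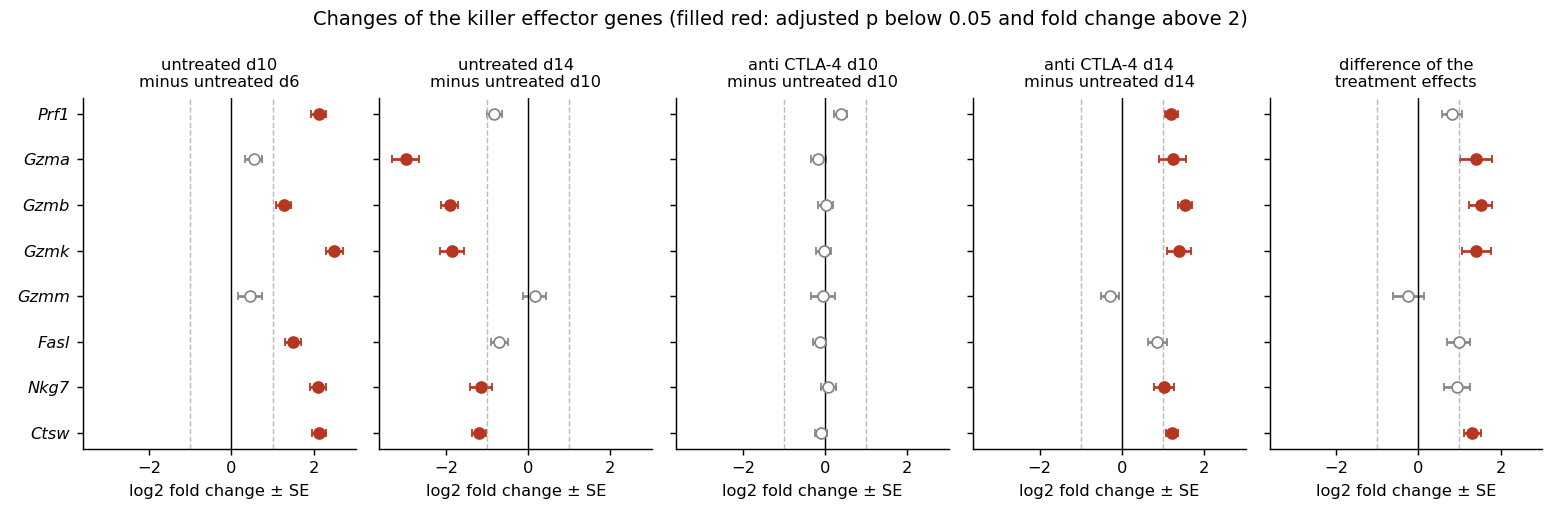
Log2 fold change with its SE (edgeR quasi-likelihood fit) of each gene in 4 comparisons of tumor groups and in the difference of the treatment effects at d14 and d10, with dashed lines at a 2-fold change. Gzma had the largest fall from d10 to d14 (-2.98), and at d10 the treated and untreated tumors differed by at most 0.38 in any of the 8 genes.

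Because the genes moved by different amounts, the make-up of the killer gene mRNA changed between phases. The summed level of the 8 genes was 173 ± 8.76 normalized CPM per kb of exon (SD, n = 3) in d6 tumors, 426 ± 65.2 (SD, n = 5) in untreated d10 tumors and 136 ± 31.2 (SD, n = 3) in untreated d14 tumors. It was 442 ± 51.3 (SD, n = 3) in treated d10 and 335 ± 33.8 (SD, n = 3) in treated d14 tumors. Prf1 made up 8.52% ± 1.03 of the sum at d6, 14.8% ± 1.48 at d10 and 26.2% ± 0.391 at d14 without treatment. Gzma went the other way, with 28.4% ± 4.25, 16.4% ± 1.92 and 6.31% ± 1.65 in the same groups, and none of these ranges overlapped for either gene. Gzmb kept the largest share, with 52.6% ± 3.75, 50.4% ± 5.88 and 42.5% ± 4.80. Nkg7 made up 7.54% ± 0.457 at d6 and 18.3% ± 3.97 at d14. The ratio of Prf1 to Gzma, both per kb, was 0.306 ± 0.0647 at d6, 0.913 ± 0.161 at d10 and 4.39 ± 1.31 at d14 without treatment. Treated d14 tumors, at 3.96 ± 0.598, overlapped untreated d14 tumors in this ratio, and Gzma made up 6.16% ± 0.430 of their sum. Treated d10 tumors had a ratio of 1.32 ± 0.221, overlapping untreated d10 tumors. These shares and ratios are descriptions without a test.

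**Figure D3:**
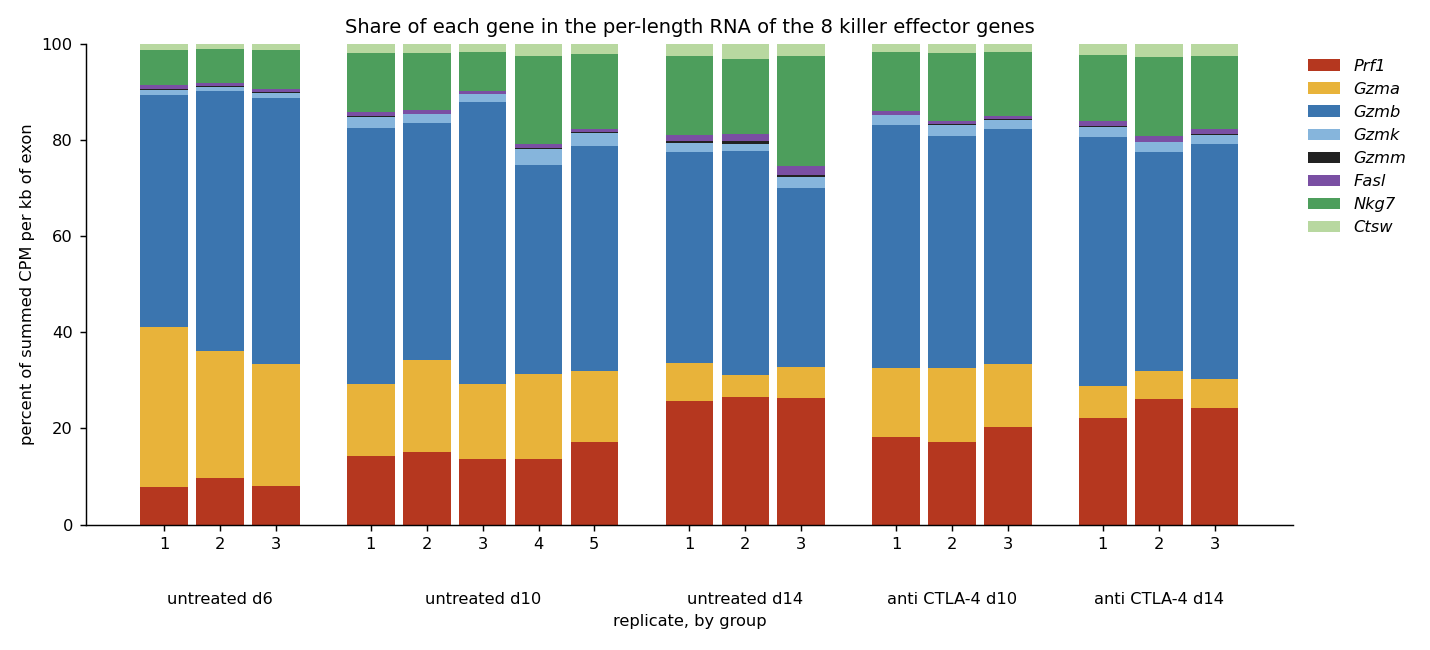
Percent of the summed CPM per kb of exon of the 8 genes taken by each gene, 1 bar per tumor, by group. The Prf1 share was 7.93% to 9.71% in d6 tumors and 25.8% to 26.6% in untreated d14 tumors, and the Gzma share was 25.4% to 33.2% and 4.55% to 7.81%.

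Anti CTLA-4 was then compared with no treatment at the same day. At d10 none of the 8 genes was called by edgeR's quasi-likelihood test, and among all 17258 genes 0.0174% were. At an unadjusted p-value below 0.05 the count was 1 of 8, for Prf1 (log2 fold change 0.38, SE 0.16, adjusted p = 0.355), beside 13.5% of all genes, which is near the share of the members. DESeq2 called none of the 8 either. The other log2 fold changes were -0.16 for Gzma, -0.13 for Fasl, -0.10 for Ctsw, -0.05 for Gzmm, -0.04 for Gzmk, 0.02 for Gzmb and 0.08 for Nkg7. The number of all genes called depended on the fit and on the untreated d10 tumors used. It was 3 in the main edgeR fit, 223 with DESeq2, 1210 with the replicate block, 1152 against untreated d10 replicates 1 to 3 and 96 against replicates 4 and 5, while none of the 8 killer genes was called in any of these.

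At d14 the treated tumors were higher than the untreated tumors for 7 of the 8 genes. Called higher were Prf1, Gzma, Gzmb, Gzmk, Nkg7 and Ctsw, 6 of 8, against 9.07% of all 18062 genes tested. Fasl passed the edgeR test with a change below 2-fold (0.86, SE 0.23, adjusted p = 0.0272), and 17.7% of all genes passed in this direction at any size. With the replicate number as a block Fasl did not pass, so that 6 of the 8 were higher in place of 7. Gzmb changed most, by 2.91-fold (log2 fold change 1.54, SE 0.17, adjusted p = 0.00436), followed by Gzmk (1.39, SE 0.29, adjusted p = 0.0130), Gzma (1.24, SE 0.33, adjusted p = 0.0249), Ctsw (1.23, SE 0.14, adjusted p = 0.00436), Prf1 (1.21, SE 0.16, adjusted p = 0.00499) and Nkg7 (1.03, SE 0.24, adjusted p = 0.0161). The groups did not overlap for any of the 8 genes. In 7 of them the treated tumors lay higher, as for 24.2% of all genes, and in Gzmm they lay lower, as for 27.7% of all genes, though Gzmm did not pass the test (-0.29, SE 0.21, adjusted p = 0.327). The median log2 fold change of the 8 genes was 1.22, against 0.00 for all genes tested. The summed level of CD8 T cell genes was 103 to 118 normalized CPM in treated and 38.3 to 73.4 in untreated d14 tumors, and macrophage genes were at 952 to 1181 against 482 to 613 normalized CPM. The leukocyte gene Ptprc was at 272 to 316 against 122 to 202 and Cd4 at 8.13 to 10.2 against 2.08 to 4.57 normalized CPM, while the sum of the mesothelioma and mesothelium genes was lower, at 1882 to 2098 against 2767 to 2837 normalized CPM. None of these ranges overlapped. Within the mesothelioma and mesothelium list the keratins Krt19, Krt18 and Krt8 passed the edgeR test as lower, each by less than 2-fold, whereas Wt1 and Lrrn4 were called higher, and the median log2 fold change of the 8 genes tested was 0.03. Their part in the difference was not tested.

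This comparison rests on few tumors, and some of its calls move with single libraries. Without untreated d14 replicate 2 the calls of Gzma (log2 fold change 0.92) and Nkg7 (0.78) fell below 2-fold, without replicate 1 Nkg7 had an adjusted p-value of 0.0533 in edgeR, and without replicate 3 Fasl was called as well (1.15). Leaving out anti CTLA-4 d14 replicate 1 or 2 gave adjusted p-values of 0.0812 and 0.0601 for Gzma and 0.0527 and 0.0528 for Nkg7. With anti CTLA-4 d14 replicate 2 alone, the treated tumor in which pancreas acinar genes were low, the log2 fold changes of the 6 genes were 1.12 to 1.42, and none was called (lowest adjusted p in edgeR 0.0965), in a fit where the spread comes from the untreated tumors only.

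Treated d14 tumors were also set against untreated d10 tumors, which share the d10 tumors with the comparisons above. Gzma was called lower (log2 fold change -1.81, SE 0.21, adjusted p = 0.00177 in edgeR), 1 of 8 beside 2.49% of all 18057 genes (450 genes). That number was 212, 164 and 232 without anti CTLA-4 d14 replicates 1, 2 and 3, and 280 and 686 without untreated d10 replicates 1 and 4. No other member passed the test. With the replicate number as a block, 1 of the 8 genes passed as higher and 2 as lower, and 1 was called. Gzmb differed by -0.44 (SE 0.18, adjusted p = 0.0990) and Gzmk by -0.53 (SE 0.19, adjusted p = 0.0687), and Prf1 by 0.32 (SE 0.15, adjusted p = 0.145). The differences were 0.10 for Fasl, -0.05 for Ctsw, -0.17 for Nkg7 and -0.19 for Gzmm. Against untreated d10 replicates 4 and 5 alone, Gzmk (-0.78, adjusted p = 0.00719) and Nkg7 (-0.41, adjusted p = 0.0111) were lower too, and against replicates 1 to 3 alone Gzmb was (-0.59, adjusted p = 0.00934), each by less than 2-fold in edgeR.

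Within the treated mice, Gzma fell from d10 to d14 by 1.59 on the log2 scale (SE 0.13, adjusted p = 0.000280 in edgeR), the 1 call among the 8 genes beside 2.48% of all 17791 genes called lower (441 genes). With protein coding genes alone, 169 of 14392 were called lower. Gzmb (-0.40, SE 0.13, adjusted p = 0.0303) and Gzmk (-0.44, SE 0.14, adjusted p = 0.0271) fell by less than 2-fold, beside 23.3% of all genes that passed in this direction. The levels of Prf1 differed by -0.01 (SE 0.11, adjusted p = 0.944) and those of Fasl, Nkg7, Ctsw and Gzmm by 0.28, -0.19, 0.11 and -0.09, none of which passed the test. Other cell markers moved over the same interval. All 5 B cell genes, all 3 plasmacytoid dendritic cell genes and 2 of 4 neutrophil genes were called higher, beside 1601 of 17791 genes. The plasmacytoid dendritic cell genes summed to 10.7 to 89.9 normalized CPM in treated d14 tumors, of which Ccr9 had 3.00 to 4.05. Of 4 pancreas acinar genes 3 were tested here, against 1 between treated and untreated d10 tumors. The others entered the test only through the treated d14 tumors, so these calls are not counted. Acinar genes summed to 3.53 to 2348 normalized CPM in treated d14 tumors. The part of all these cells in the changes of the killer genes was not tested.

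The difference between the treatment effects at d14 and at d10 was tested in one edgeR fit of the 4 groups. It was called for Gzma (1.40, SE 0.39, adjusted p = 0.0249), Gzmb (1.51, SE 0.27, adjusted p = 0.00430), Gzmk (1.41, SE 0.35, adjusted p = 0.0152) and Ctsw (1.32, SE 0.21, adjusted p = 0.00328), 4 of 8, beside 9.67% of all 18574 genes in that direction (1797 genes). That number was 1037 without untreated d14 replicate 2, and 1169 and 1133 without anti CTLA-4 d14 replicates 1 and 2. Fasl (0.98, SE 0.29, adjusted p = 0.0308) and Prf1 (0.82, SE 0.25, adjusted p = 0.0357) passed the test below 2-fold, so that 6 of 8 passed beside 11.9% of all genes, and Nkg7 (0.95, SE 0.32, adjusted p = 0.0560) and Gzmm (-0.25, SE 0.38, adjusted p = 0.694) did not. The call of Gzma was lost without anti CTLA-4 d10 replicate 2 or 3 or anti CTLA-4 d14 replicate 1 (adjusted p = 0.0619, 0.0666 and 0.0722). The effect at d14 compares libraries of one set, and the effect at d10 compares treated tumors with untreated tumors of both sets. With untreated d10 replicates 4 and 5 alone, which share a set with the treated d10 tumors, 5 of the 8 genes were called. Nkg7 was called there (1.21, SE 0.29, adjusted p = 0.0141), and Fasl (0.88, SE 0.32, adjusted p = 0.0669) did not pass edgeR's test. Fasl was called by edgeR with replicates 1 to 3 alone (1.05, adjusted p = 0.0152) and with the replicate number as a block (1.08, adjusted p = 0.0222). Over 22 alternatives Fasl gained a call in 7 and Nkg7 in 3.

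The killer genes were next set against the CD8 T cell genes of the same tumor, as the level of each gene over the geometric mean of Cd8a and Cd8b1. Relative to the CD8 genes, all 8 genes were lower in untreated d10 than in d6 tumors without overlap, but so were 99.7% of all 16864 genes, since Cd8a and Cd8b1 rose more than almost every other gene. That count therefore says nothing particular to the killer genes. The median ratio over all genes was 8.50-fold lower, and each of the 8 genes fell by less than that, with ratios 6.00-fold lower for Gzma, 3.64-fold for Gzmb, 3.41-fold for Fasl and 7.21-fold for Gzmm, but 2.02-fold for Prf1, 2.11-fold for Nkg7, 2.19-fold for Ctsw and 1.79-fold for Gzmk. With Cd3d, Cd3e and Cd3g in place of the CD8 genes, Gzma, Gzmb, Gzmm and Fasl were lower without overlap, 4 of 8 beside 98.5% of 16863 genes, and the values for Prf1 and Gzmk changed sign (0.02 and 0.19 on the log2 scale).

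From d10 to d14 the CD8 genes fell, and relative to them 77.5% of 17657 genes were higher without overlap and 0.0906% were lower. Gzma and Gzmk were among the lower ones. The ratio of Gzma to the CD8 genes was 1.31 ± 0.353 (SD, n = 5) in untreated d10 and 0.352 ± 0.104 (SD, n = 3) in untreated d14 tumors, a 3.72-fold lower ratio on the log scale (p = 0.0179 by a two-sided exact permutation test, which cannot go lower with 5 and 3 tumors, and 0.0247 after adjustment over all genes). For Gzmk the ratio was 0.246 ± 0.0191 and 0.155 ± 0.0198 (exact permutation p = 0.0179, adjusted p = 0.0247). Every gene at this lowest p-value has the same adjusted value. It is low because so many genes were higher without overlap, so it says nothing particular to Gzma or Gzmk. Gzmm (2.31-fold, exact permutation p = 0.0179, adjusted p = 0.0247) and Fasl (1.34-fold, exact permutation p = 0.0714, adjusted p = 0.0833) were higher relative to the CD8 genes without overlap. The log2 difference of Gzmm (1.21) was near the median of 1.07 over all genes, so its rise was like that of most genes. For Fasl the log2 difference of 0.42 was below that median, and its groups overlapped with the CD3 genes as the reference (0.31). Prf1 (1.20-fold), Nkg7 (0.964-fold) and Ctsw (0.969-fold) overlapped between the groups, as did Gzmb (0.572-fold, exact permutation p = 0.0714, adjusted p = 0.0833). With the CD3 genes as the reference Gzmb was lower without overlap (-0.92 on the log2 scale). It was so relative to the CD8 genes too when untreated d10 replicate 4 was left out (-0.97).

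At d14, relative to the CD8 genes, Gzmb was higher in treated than in untreated tumors without overlap (1.40-fold), beside 1.18% of 18060 genes, and Gzmm and Fasl were lower without overlap, beside 85.7%. The Gzmb ratios were 5.07, 3.93 and 4.45 in treated and 3.65, 3.86 and 2.28 in untreated d14 tumors. Without untreated d14 replicate 3, the lowest of these, the log2 difference was 0.25 in place of 0.49, and over tumors left out in turn it was 0.25 to 0.63. The ratio of Gzma to the CD8 genes was 0.406 ± 0.0530 (SD, n = 3) in treated and 0.352 ± 0.104 in untreated d14 tumors, which overlapped, as did Prf1, Gzmk, Nkg7 and Ctsw. With the CD3 genes as the reference at d14, Prf1 (0.26 on the log2 scale) and Gzmk (0.36) were higher without overlap, and Fasl overlapped (-0.14). With 3 tumors against 3 the exact permutation test cannot give a p-value below 0.1. At d10, Prf1, Gzmk and Nkg7 were higher relative to the CD8 genes in treated tumors without overlap, 3 of 8 beside 14.7% of 17256 genes. The log2 differences were 0.61 for Prf1, 0.33 for Nkg7 and 0.21 for Gzmk, beside a median of 0.22 over all genes, so that Gzmk lay below that median. Their exact permutation p-values were 0.0357 and 0.221 after adjustment over all genes, and with the CD3 genes as the reference Prf1 alone was higher without overlap, 1 of 8 beside 5.92% of 17255 genes.

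**Figure D4:**
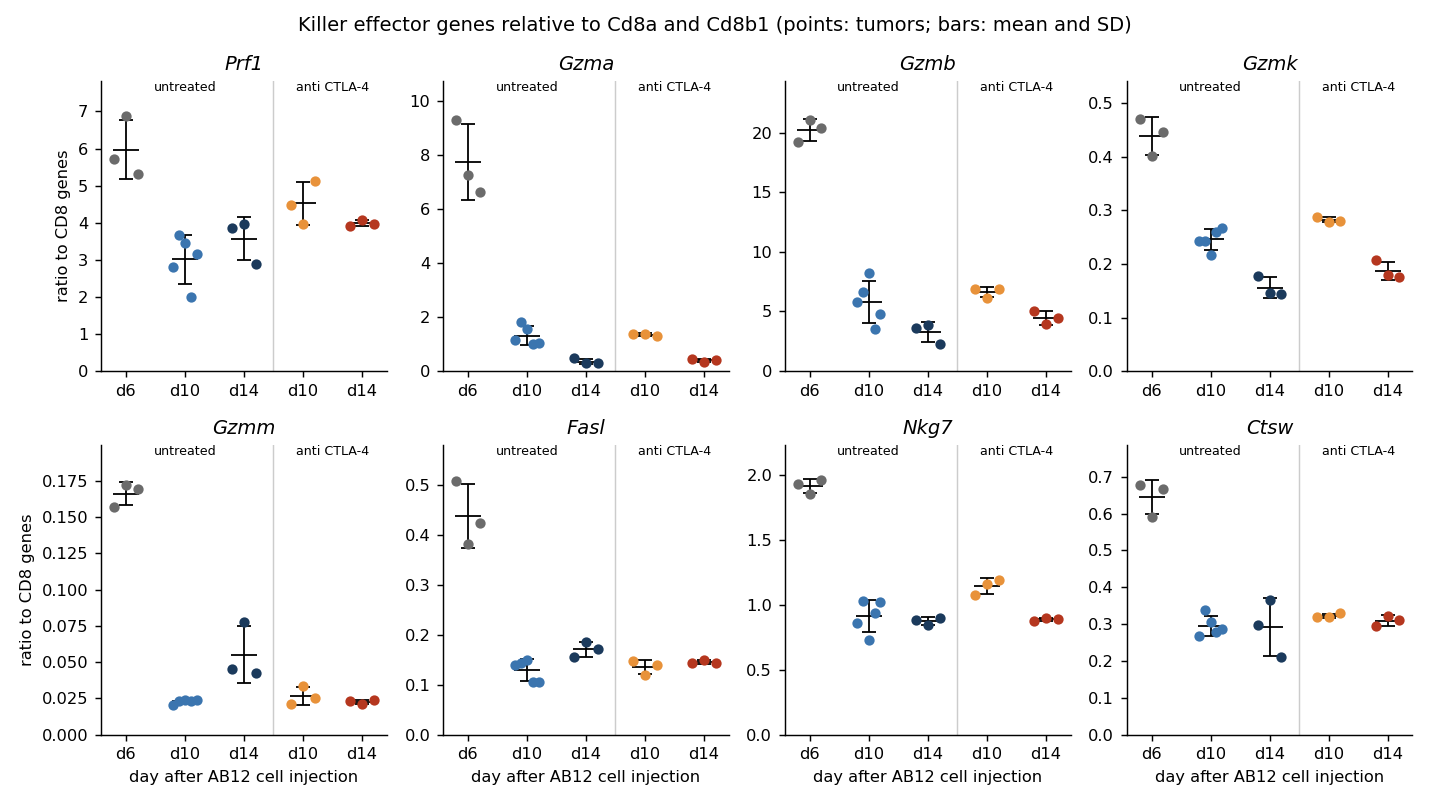
Level of each gene over the geometric mean of Cd8a and Cd8b1 (normalized CPM with 0.5 added, linear axes from 0) in the 17 tumors by group, with mean and SD. The Gzma ratio was 6.62 to 9.30 in d6 tumors, 1.31 ± 0.353 (SD, n = 5) in untreated d10 tumors, 0.290 to 0.472 in untreated d14 tumors and 0.356 to 0.462 in treated d14 tumors.

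The NK cell markers did not move together. The NK receptor gene Ncr1 was at 6.78 ± 0.551 normalized CPM (SD, n = 3) in d6 tumors, 4.31 ± 1.23 (SD, n = 5) in untreated d10 tumors and 1.43 ± 0.460 (SD, n = 3) in untreated d14 tumors, with 2.39 ± 0.422 and 2.22 ± 0.224 (SD, n = 3 each) in treated d10 and d14 tumors. Ncr1 was called lower from d10 to d14 (-1.59, SE 0.31, adjusted p = 0.0111 in edgeR). Klrb1c was also called lower over that interval (-1.80, SE 0.43, adjusted p = 0.0207). Klre1, in contrast, was called higher from d6 to d10 (1.38, SE 0.27, adjusted p = 0.00787 in edgeR), with means of 1.15 normalized CPM in d6, 2.94 in untreated d10, 1.89 in untreated d14 and 2.94 and 2.78 in treated d10 and d14 tumors, and its fall to d14 did not pass the test (-0.64, SE 0.26, adjusted p = 0.102). The 5 NK markers together (Ncr1, Klrb1c, Klre1, Klra1 and Klra9) summed to 8.20 to 9.32 normalized CPM at d6, 6.22 to 11.2 at d10 and 2.76 to 4.27 at d14 without treatment, and to 5.49 to 6.69 and 4.61 to 7.11 in the treated groups. Of these, 3 passed the filter on low counts in each comparison of 2 groups and 4 in the fit of the difference between the treatment effects, and Klra9 had 0 counts in 7 of 17 libraries. Gzma was the member closest to Ncr1 over the 17 tumors, with a Pearson r of 0.72. Its r was 0.02 with Cd8a, 0.23 with Cd8b1 and 0.22 with Cd3e. Ncr1 was the only NK marker correlated with the members. Prf1 had an r of 0.95 with Cd8a and -0.41 with Ncr1. These correlations are descriptions over 17 tumors that share 5 group means. The part of NK cell number in the level of Gzma was not tested.

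After the group means were subtracted, the members fell into other pairings. Gzmk and Nkg7 still varied together (r = 0.91 over 17 tumors) and with Cd8b1 (0.95 and 0.93). Gzmb, in contrast, had an r of 0.01 with Cd8b1, -0.07 with Nkg7 and 0.10 with Gzmk, but 0.67 with Prf1, 0.68 with Gzma and 0.74 with Ncr1. Prf1 and Gzma, which had an r of 0.17 over the tumors as measured, had 0.69 within groups. Within groups Gzma had an r of 0.72 with Ncr1 and 0.62 with Cd8a, so that these markers were no longer far apart. These values are descriptions too, since each group contributes few tumors. Subtracting group means also leaves in the 2 library sets of the untreated d10 group. Replicates 4 and 5 minus 1 to 3 differed there by -0.47 for Gzmb, 0.46 for Gzmk and 0.43 for Nkg7 on the log2 scale. The part of this split in the r values was not tested.

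**Figure D5:**
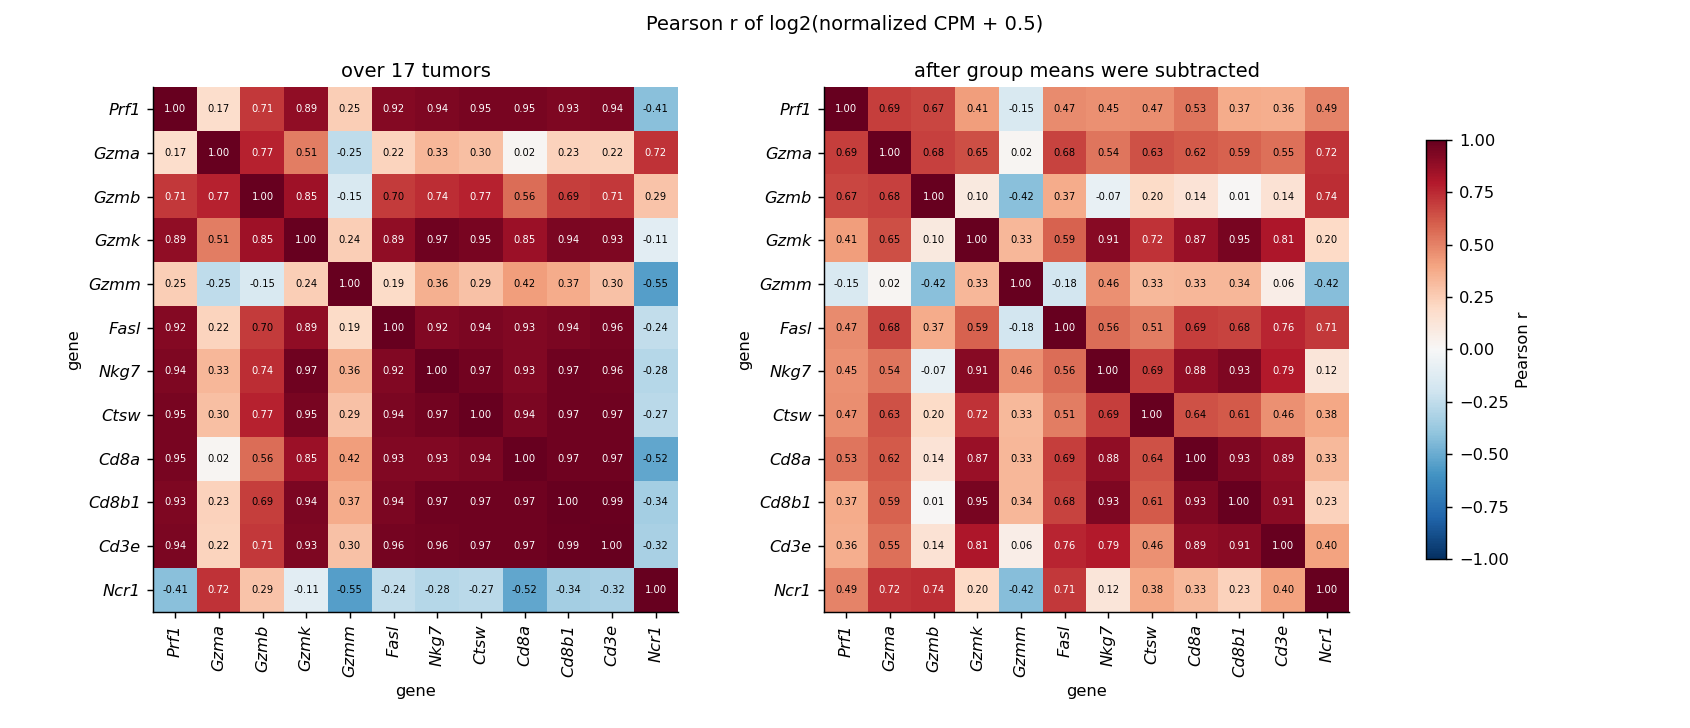
Pearson r of log2(normalized CPM + 0.5) between the 8 genes, CD8, CD3 and NK marker genes over the 17 tumors (left) and after each group mean was subtracted (right), on a color scale from -1 to 1. Gzma stands apart from Prf1 on the left (0.17) and not on the right (0.69).

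The genes most like each member over the 17 tumors were taken among 12360 protein coding genes, as a description. Nkg7 was most like Cd3d (r = 0.998), Zap70 (0.98) and Rhof (0.98). Gzmk was most like the same first pair, Cd3d (0.98) and Zap70 (0.97), and then Bspry (0.96), and Ctsw was most like Cd3e (0.97), Cd8b1 (0.97) and Dkkl1 (0.97). Prf1 was most like Themis (0.98), Atp8b4 (0.97) and Lrp12 (0.97), and Fasl was most like Cd28 (0.97), Bambi (0.97) and Gpr174 (0.97). Of these, Cd3d, Cd3e, Zap70, Themis, Cd28 and Cd8b1 are T cell genes. Gzmb was most like Slc16a3 (0.93), Tmc8 (0.92) and Gfi1 (0.92), Gzma like Plbd1 (0.95), Cstb (0.94) and Rab4a (0.94), and Gzmm like Il34 (0.84), Shc1 (0.83) and Bphl (0.81).

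Genes of granule loading and release were taken as a list beside the effector genes. Of 11 such genes 10 were tested, and from d6 to d10 Cst7, which encodes the cathepsin inhibitor cystatin F, was the 1 called higher (log2 fold change 1.64, SE 0.16, adjusted p = 0.000354 in edgeR), beside 4.79% of all genes. Lyst also rose, by less than 2-fold (0.82, adjusted p = 0.00145). The median of the 10 was 0.19, against 1.80 for the 8 effector genes and 0.03 for all genes. From d10 to d14, Cst7 (-1.34, SE 0.19, adjusted p = 0.00596) and Ctsc (-1.03, SE 0.16, adjusted p = 0.00660), the protease that activates granzymes, were called lower, 2 of 10 beside 3.45% of all genes, and Ctsc fell by 0.91 against untreated d10 replicates 4 and 5 alone. Rab27a, Stx11, Srgn and Lamp1 fell by less than 2-fold, so that 6 of 10 fell beside 9.87% of all genes, and Lyst rose (0.74, SE 0.15, adjusted p = 0.0132). In treated d14 tumors 7 of the 10 were higher than in untreated d14 tumors and none by 2-fold, beside 17.7% of all genes that passed in this direction, among them Cst7 (0.95, adjusted p = 0.00996), Ctsc (0.91, adjusted p = 0.00597) and Rab27a (0.77, adjusted p = 0.0116), all by edgeR. Vamp8 had 0 counts in 14 of 17 libraries.

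The list of granzyme inhibitors held 5 serpin genes, and whether each of them inhibits a granzyme was not tested. Of these, Serpinb9, the mouse inhibitor of granzyme B, was called lower from d6 to d10, opposite to Gzmb, beside 2.66% of all genes called lower (449 genes, against 296 and 252 without d6 replicates 1 and 3 and 1554 with untreated d10 replicates 4 and 5 alone). Its level was 449 ± 49.2 normalized CPM (SD, n = 3) in d6, 211 ± 19.3 (SD, n = 5) in untreated d10, 191 ± 7.76 (SD, n = 3) in untreated d14 and 156 ± 15.6 (SD, n = 3) in treated d14 tumors. The log2 fold change was -1.07 (SE 0.11, adjusted p = 0.000486) from d6 to d10 in edgeR, and -0.99 with untreated d10 replicates 1 to 3 alone. Serpinb9b (0.76, adjusted p = 0.00442), Serpinb1a (0.81, adjusted p = 0.00546) and Serpinb6a (0.48, adjusted p = 0.0278) rose by less than 2-fold over the same interval, and Serpinb6b fell (-0.52, adjusted p = 0.00858). These are 3 of 5 higher and 2 of 5 lower by adjusted p-value, beside 10.5% and 7.03% of all genes. None passed the test from d10 to d14, and in treated d14 tumors Serpinb6a (-0.67, adjusted p = 0.00604), Serpinb1a (-0.31, adjusted p = 0.0473) and Serpinb9 (-0.26, adjusted p = 0.0456) were lower than in untreated d14 tumors, 3 of 5 beside 14.8% of all genes.

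The last list held 9 genes of the death receptor and caspase pathways, including Fas. Tnfsf10, the ligand TRAIL, was called lower from d6 to d10 (-1.11, SE 0.22, adjusted p = 0.00806), beside 2.66% of all genes, and Casp8 fell by less than 2-fold (-0.32, adjusted p = 0.0244), by edgeR. No gene of this list passed the test from d10 to d14 or between treated and untreated d14 tumors, with a median log2 fold change of 0.02 and -0.13. Between d6 and d14, 5 of the 9 were lower and 1 was higher, none by 2-fold, beside 26% and 25.5% of all genes. Casp8 (-0.38, adjusted p = 0.00238) was among the lower ones and Cflar (0.32, adjusted p = 0.0271) was the higher one, by edgeR. In treated d14 tumors 3 of the 9 were lower than in treated d10 tumors, none by 2-fold, beside 23.3% of all genes, among them Tnfrsf10b (-0.48, adjusted p = 0.00594) and Bid (-0.37, adjusted p = 0.00968), by edgeR.

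The granzymes outside the group, Gzmc, Gzmd, Gzme, Gzmf, Gzmg and Gzmn, were also followed. Gzmc (log2 fold change 2.38, SE 0.49, adjusted p = 0.0103), Gzmd (5.75, SE 0.73, adjusted p = 0.00105), Gzme, Gzmf and Gzmg were called higher from d6 to d10 by edgeR, beside 4.79% of all genes. Gzmn had 0 to 1 counts in the d6 and 3 to 19 counts in the untreated d10 tumors, and as it was tested only because of the latter its call is not counted. None of the 6 passed the test from d10 to d14, where the median was -0.13. Gzmd, for example, was at 3.42 ± 1.77 normalized CPM (SD, n = 3) in d6, 180 ± 95.3 (SD, n = 5) in untreated d10, 172 ± 42.5 (SD, n = 3) in untreated d14 and 412 ± 56.1 (SD, n = 3) in treated d14 tumors. In treated d14 tumors 5 of the 6 were called higher than in untreated d14 tumors, beside 9.07% of all genes. These genes resemble each other in sequence, and reads that fit several of them are lost when only uniquely mapped reads are kept.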

How the data were processed

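RNA of 17 AB12 tumors was sequenced, 1 library per tumor. Per the study's methods and the submitters' processing notes, the authors used TopHat2 2.0.14 for alignment to GRCm38 and HTSeq with the Gencode vM21 annotation for counting, on uniquely mapped reads. The deposited values are raw counts per gene. Library sizes were 46371577 to 96759833 counts. Here, groups came from the labels. Each comparison was fitted on its own groups with edgeR 4.0.16 (filterByExpr, TMM, quasi-likelihood test) in R 4.3.3. The p-values were adjusted by Benjamini-Hochberg over all genes tested, and a gene was called when the adjusted value was under 0.05 with more than a 2-fold change. SE is the log2 fold change over the square root of F. Ratios to CD8 genes used log2(normalized CPM + 0.5) and exact permutation tests. The script was tested on simulated data. Alternatives were DESeq2 1.42.0, other filters and scaling, all groups in one fit, tumors left out, parts of the untreated d10 group and a replicate block.

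Named were the 8 members, with called genes of the lists and the 3 genes most like each member. Members, lists and motifs were chosen with earlier results of these data known. The labels name separate samples, and no 2 replicates differed by as little as sampling noise (chi-square per gene 20.3 to 295 over 22 pairs). Intervals of counting error are not given, since the spread between tumors is larger. Per the study's methods, libraries were run on a NextSeq500 or a NovaSeq6000 with different read lengths, and which library was run on which is not given in the sources used here. Figures were drawn with matplotlib.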

Additional observations from a re-analysis of the deposited data

Results flagged for a closer look

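The effect of anti CTLA-4 differed between d14 and d10 for 6 of the 8 killer genes by an adjusted p-value below 0.05 of the difference itself (edgeR quasi-likelihood test of the interaction in the 4 groups). The difference of the log2 fold changes was 1.51 for Gzmb, 1.41 for Gzmk, 1.40 for Gzma, 1.32 for Ctsw, 0.98 for Fasl and 0.82 for Prf1, higher at d14 in each. With untreated d10 replicates 4 and 5 alone as the untreated d10 group, Fasl did not pass the edgeR test (0.88, adjusted p = 0.0669). Nkg7 passed it there (1.21, adjusted p = 0.0141), so that again 6 of the 8 passed. Among all 18574 genes tested, 11.9% passed in this direction. In the 8 tests for a tumor apart from the other 4 in the untreated d10 group, 1 for each gene, none was past Dixon's limit.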

How the results depend on the processing

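The number of the 8 genes called was within 1.5 times the main count, for all 8 comparisons, with DESeq2, with either other filter on low counts, with all groups in one fit where that was run, with protein coding genes alone and with parts of the untreated d10 group. It rose from 2 to 4 between d14 and d6 without TMM, and over tumors left out in turn it was 2 to 4 there (4 without untreated d14 replicate 2). With anti CTLA-4 d14 replicate 2 as the only treated tumor, chosen after seeing the data, it was 0 against untreated d14 and 0 against untreated d10 tumors, a fit with fewer samples. Replicate numbers did not pair the tumors (median correlation of same-numbered tumors 0.0078, above 0.1 in 9 of 30 pairs). With the replicate block 6, 4, 2, 6, 1, 0, 1 and 5 genes were called, in the order d10 against d6, d14 against d10, d14 against d6, treated against untreated d14, treated d14 against untreated d10, treated against untreated d10, treated d14 against treated d10, and the difference of the effects. Among all genes, 3 were called between treated and untreated d10 tumors, against 223 with DESeq2, 1210 with the block, 1152 with untreated d10 replicates 1 to 3 and 96 with replicates 4 and 5. Genes called higher from d6 to d10 numbered 808, against 514 without d6 replicate 1 and 1240 with untreated d10 replicates 4 and 5, and those higher in treated than untreated d14 tumors 1638, against 1045 without untreated d14 replicate 2 and 976 and 1010 without treated d14 replicates 1 and 2. Genes called lower from d10 to d14 numbered 609, against 973 with all groups in one fit, 931 with the block and 1142 with untreated d10 replicates 1 to 3, and those lower in treated d14 than untreated d10 tumors 450, against 282 without TMM, 278 with at least 10 counts in every library, 179 of protein coding genes, 1020 with the block and 1007 with untreated d10 replicates 1 to 3.

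The log2 fold changes that turned sign were small and passed no test, and the cause was not tested. For treated d14 against untreated d10, Ctsw was 0.10 without TMM, 0.030 with protein coding genes, 0.054 with the replicate block, 0.040 with untreated d10 replicates 1 to 3, 0.078 with treated d14 replicate 2 alone and -0.12 to 0.018 over tumors left out. Nkg7 was 0.062 with the block and 0.034 with replicates 1 to 3, and Gzmm 0.090 and 0.076. For treated against untreated d10, Gzmb was -0.014 without TMM, -0.15 with the block, -0.14 with replicates 1 to 3 and -0.089 to 0.11 over tumors left out. Gzmk was 0.18 with the block, 0.18 with replicates 1 to 3 and -0.13 to 0.067 over tumors left out, and Gzmm 0.21, 0.21 and -0.30 to 0.082. Nkg7 was -0.18 with replicates 4 and 5 and -0.037 to 0.16 over tumors left out. For treated d14 against treated d10, Prf1 was 0.11 without TMM, 0.015 with at least 10 counts in every library, 0.016 with protein coding genes and -0.13 to 0.061 over tumors left out, and Gzmm was 0.033 without TMM and -0.24 to 0.17 over tumors left out. With untreated d10 replicates 4 and 5, Gzmm was -0.15 for d14 against d10 and 0.069 for the difference of the effects, which was -0.39 to 0.0051 over tumors left out.

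Relative to CD3 in place of CD8 genes, 4 genes did not overlap between d10 and d6, where Prf1 was 0.020 and Gzmk 0.19, and 1 did not between treated and untreated d10, where Gzma was -0.057, Fasl -0.049 and Ctsw -0.0075. Between treated and untreated d14, Gzmb (0.57) and Gzmm (-1.14) still did not overlap, Prf1 (0.26) and Gzmk (0.36) no longer overlapped, and Fasl (-0.14) did. From d10 to d14, Gzmb (-0.92) no longer overlapped and Fasl (0.31) did. Over tumors left out, relative to the CD8 genes, Ctsw was -0.23 to 0.17 for d14 against d10 and -0.10 to 0.30 between treated and untreated d14, Nkg7 was -0.0063 to 0.039 there, Gzma was -0.0052 to 0.21 between treated and untreated d10, and the count at d14 was 3 to 5 (5 without untreated d14 replicate 1). Gzmm had the fewest counts, 24 to 95 per tumor.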
